A study of Mus musculus with 10 samples.

Results

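Interferons (IFNs) switch on a common set of antiviral effector genes in most cells, and 40 of these classical IFN-stimulated genes were examined in tumors that were sampled before treatment. The genes were chosen by name as known effectors of the IFN response, with earlier results of these data known. They are 40 of the 36009 genes in the count table. Each had counts in every tumor, and all 40 were among the 16041 genes that passed the filter on low counts and were tested. The tumors were 10 subcutaneous CT26 tumors, a transplanted colorectal carcinoma line, in wild-type female BALB/c mice. A portion of each tumor was resected, and a hydrogel carrying poly(I:C), a synthetic double-stranded RNA that RNA sensors recognize, was then placed on what remained. All 10 libraries are from the resected, untreated portion. The responder group holds 6 tumors from mice that went on to clear their tumor, and the non-responder group holds 4 from mice whose tumor kept growing at its usual pace. Tumors are numbered within a group in the order in which they were registered, and the numbers pair no tumors across groups. All tumors come from 1 cell line, and each library is RNA from a whole piece of tumor with its host cells, so RNA of tumor cells and of host cells cannot be told apart.

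As background, type I and type III IFNs bind their receptors and activate the kinases JAK1 and TYK2, which lead to the assembly of the transcription factor complex ISGF3. This complex binds the interferon-stimulated response element (ISRE) in the promoters of its targets. IFN-gamma acts through its own receptor, and its targets often carry the gamma-activated sequence (GAS), and many genes respond to both. The products act on each step of an infection: some tag proteins, some bind or degrade foreign RNA, some keep virus particles out of the cell or on its surface, and some feed back on the IFN signal itself. In tumors the same genes are widely read as a record of past IFN exposure of tumor and host cells.

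The promoters of some of the genes are shown first, because the ISRE is the feature that these genes are known to share. Each one shown holds the core sequence of the ISRE, which most of the genes searched lacked. RefSeq promoter windows (250 bases before to 50 after the transcript start, GRCm38.p6) were given for 33 of the 40 genes, in 44 windows. The remaining genes, Mx1, Mx2, Usp18, Ifi27, Ifi27l2a, Rtp4 and Tor3a, had none. The stretches below are the 200 bases before the start, written 5′ to 3′ on the strand of the gene, for Bst2 and Phf11b (which passed the test), Isg15 (the eponymous gene, with the most matches) and the closely similar neighbors Ifit3 and Ifit3b. Capitals mark each match to the ISRE core GAAANNGAAA on either strand, where N is any base, and overlapping matches run together.
Bst2, chr8:71537473-71537672, minus strand: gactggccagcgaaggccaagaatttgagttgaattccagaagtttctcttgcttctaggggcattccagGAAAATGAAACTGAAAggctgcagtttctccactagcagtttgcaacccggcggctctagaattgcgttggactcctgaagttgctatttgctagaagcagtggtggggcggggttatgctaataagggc
Phf11b, chr14:59341331-59341530, minus strand: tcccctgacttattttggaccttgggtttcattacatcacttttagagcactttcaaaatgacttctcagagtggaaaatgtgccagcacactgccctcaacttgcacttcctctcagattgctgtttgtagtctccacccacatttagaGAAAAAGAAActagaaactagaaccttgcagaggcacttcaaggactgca
Isg15, chr4:156200819-156201018, minus strand: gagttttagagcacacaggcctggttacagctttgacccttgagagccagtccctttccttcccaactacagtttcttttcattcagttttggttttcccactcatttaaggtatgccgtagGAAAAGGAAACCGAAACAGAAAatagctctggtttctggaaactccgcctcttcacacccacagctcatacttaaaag
Ifit3, chr19:34583329-34583528, plus strand: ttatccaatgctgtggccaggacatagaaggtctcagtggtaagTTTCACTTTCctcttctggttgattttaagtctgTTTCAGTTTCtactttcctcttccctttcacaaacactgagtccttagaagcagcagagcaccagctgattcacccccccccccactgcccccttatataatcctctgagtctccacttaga
Ifit3b, chr19:34607757-34607956, plus strand: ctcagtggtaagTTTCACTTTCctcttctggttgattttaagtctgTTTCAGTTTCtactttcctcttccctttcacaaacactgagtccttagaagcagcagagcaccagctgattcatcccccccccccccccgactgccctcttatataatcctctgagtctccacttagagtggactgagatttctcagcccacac

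Bst2 had 2 overlapping ISRE cores between bases -130 and -115 from its start, Isg15 had 3 between bases -78 and -57, and Phf11b had 1 between bases -50 and -41. Ifit3 and Ifit3b carried the same pair of cores on the minus strand of the stretch, within an identical run of 119 bases. An ISRE core lay in a promoter of 12 of the 33 genes (36.4%), against 3.99% of the 27025 genes in the promoter table. By window, 12 of 44 held a core (27.3%), against 3.44% of 32851. The 12 genes were Bst2, Ddx60, Ifit1, Ifit3, Ifit3b, Ifitm2, Ifitm3, Isg15, Ogfr, Phf11b, Rsad2 and Shisa5. The shorter GAS core TTCNNNGAA, which reads the same on both strands, lay in a promoter of 6 of the 33 genes (18.2%), against 9.55% of all. These 6 were Bst2, Ifi35, Ifit2, Ifitm3, Isg20 and Shisa5, and in Bst2, Ifitm3 and Shisa5 the GAS core overlapped an ISRE core. These are matches of letters in a window, and they do not show binding. The absence of a match says only that these letters are not in that window.

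Libraries held 29065126 to 38042544 estimated counts in responders and 23374649 to 32986456 in non-responders, and no 2 libraries were the same within sampling noise (45 pairs). The fewest counts of any of the 40 genes in any tumor was 121 (Ifit3b in non-responder 1), so none was near the limit of detection. Counting error was not compared with the differences between tumors. The tissue label, colorectal carcinoma, was checked against 8 epithelial markers. Defining markers were largely absent: Epcam was at 0.121 to 0.709 CPM over the 10 tumors, Krt8 at 0 to 0.565, Krt18 at 0 to 0.0936 and Vil1 at 0 to 0.149 CPM, too low to be tested, while Krt20 and Cdh1 were present, at 12.7 to 75.3 CPM and 2.63 to 7.03 CPM (CPM, counts scaled to a common normalized library size).

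The comparison asked whether the effector genes differed, before treatment, between tumors of mice that later responded and those that did not. The estimate was higher in responders for 38 of the 40 genes, where 48.2% of all genes tested had a higher estimate. Only 2 genes passed the test and rose in responders, Bst2, which encodes tetherin, and Phf11b, which encodes a zinc finger protein. None fell. With edgeR's quasi-likelihood test and an adjusted p under 0.05, 8.06% of all genes tested were called in either direction and 4.71% were called higher, so 2 of 40 is close to the background. An unadjusted p under 0.05 with a higher estimate was found for 27 of the 40, against 15.6% of all genes. A looser threshold, an adjusted p under 0.1, gave 17 of 40 higher, against 10.5% of all genes. The median log2 fold change (responders over non-responders) was 0.45 over the 40 genes and -0.01 over all genes tested, and the 40 ranged from -0.23 to 0.92. Values of the groups did not overlap, with every responder above every non-responder, for Bst2, Phf11b, Uba7 and Ifi44, which is 4 of 40 against 5.84% of all genes. Because the samples are whole pieces of tumor, fewer cells of an expressing type and less RNA per cell cannot be told apart.

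**Figure D1:**
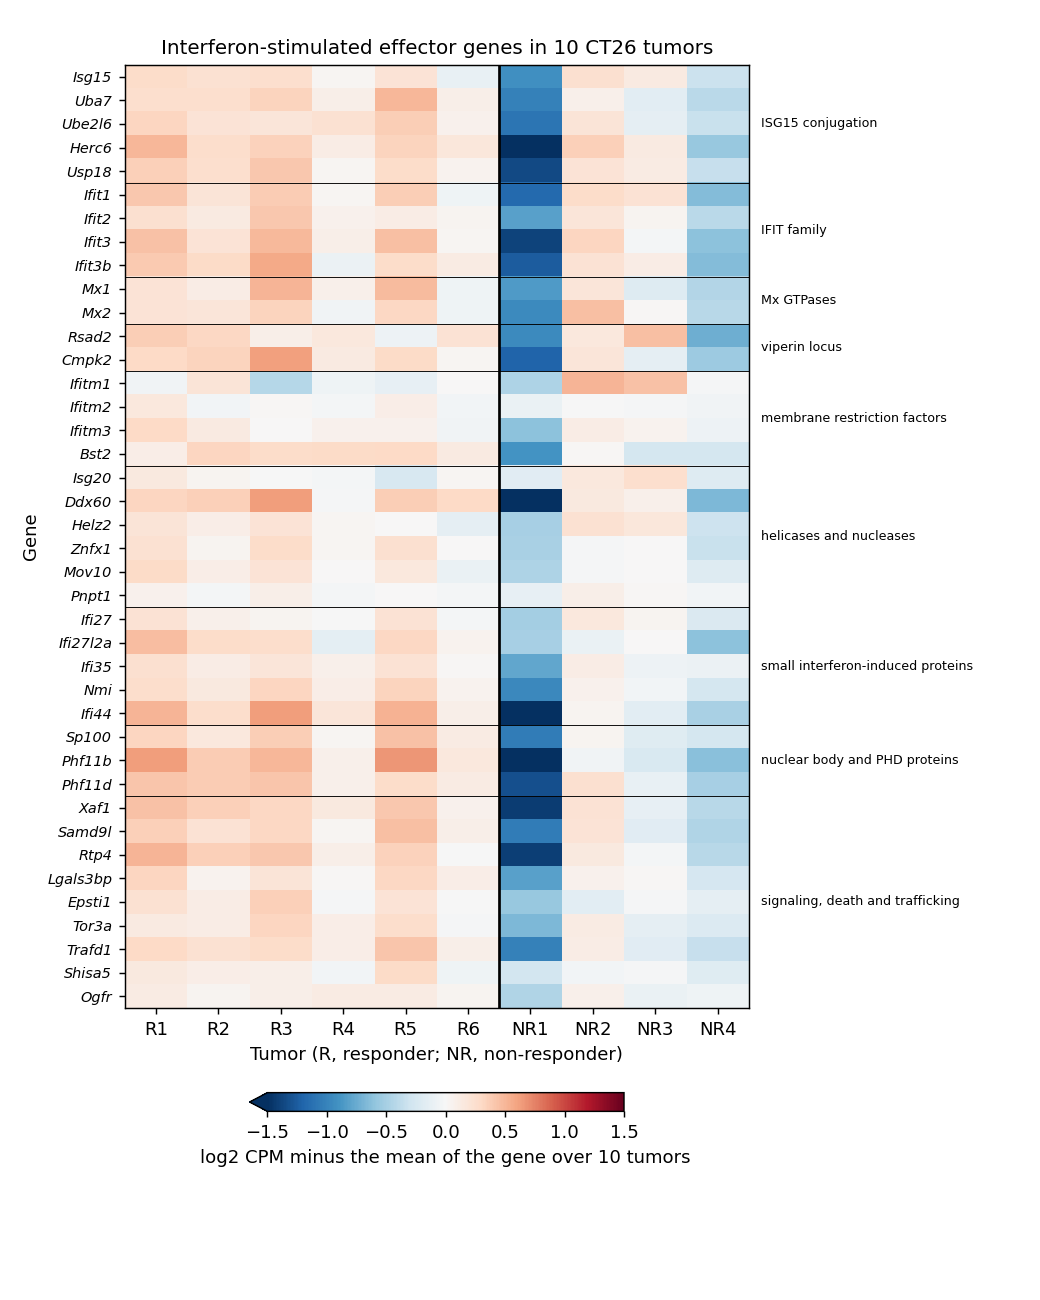
Level of each of the 40 genes (rows, grouped by role) in each of the 10 tumors (columns), as log2 CPM minus the mean of the gene over the 10 tumors, with values under the color scale drawn in its darkest blue. Non-responder 1 is the lowest tumor for 38 of the 40 genes, and non-responder 2 is above the lowest responder for 34.

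Values below are CPM, and a value with ± is the mean and SD over tumors (n = 6 responders, n = 4 non-responders). The ISG15 system is a ubiquitin-like tagging pathway, and all 5 of its genes had higher estimates, with none called. Isg15 encodes the tag, Uba7 the enzyme that activates it, Ube2l6 the enzyme that carries it, Herc6 the mouse ligase that attaches it, and Usp18 the protease that removes it and that also restrains the type I IFN receptor. Uba7 (ENSMUSG00000032596, chromosome 9, 107975505 to 107984060, plus strand; GRCm38, as all gene positions here) was at 109.5, 109.5, 117, 97.9, 130 and 98.3 CPM in responders 1 to 6 and 45.5, 97.3, 82.7 and 69.7 CPM in non-responders 1 to 4. Every responder was above every non-responder, although responders 4 and 6 and non-responder 2 lay within 1 CPM of each other, and the groups of Uba7 overlapped when scaled by library totals alone. By edgeR, Uba7 had a log2 fold change of 0.58 (standard error 0.17, adjusted p = 0.0571). Ube2l6 was at 101 ± 7.38 CPM in responders and 71.0 ± 24.01 CPM in non-responders (edgeR log2 fold change 0.50, standard error 0.18, adjusted p = 0.0999). Isg15 itself was at 47.9 ± 4.95 CPM in responders and 38.8 ± 12.8 CPM in non-responders (edgeR log2 fold change 0.30, standard error 0.18, adjusted p = 0.298). The groups overlapped for Isg15, and non-responder 2, at 50.8 CPM, was above 4 of the 6 responders. Herc6 was at 87.3 ± 8.32 CPM in responders and 60.0 ± 30.8 CPM in non-responders (edgeR log2 fold change 0.54, standard error 0.29, adjusted p = 0.234). Usp18 was at 27.5 ± 2.86 CPM in responders and 19.9 ± 8.07 CPM in non-responders (edgeR log2 fold change 0.47, standard error 0.23, adjusted p = 0.208). On the log2 CPM scale, the SD among non-responders was 0.898 for Herc6 and 0.711 for Usp18, the largest of these 5 genes. Their non-responder values ran from 22.8 to 91.3 CPM and from 9.12 to 26.8 CPM.

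The IFIT proteins bind foreign RNA and sequester it from translation, and all 4 of their genes had higher estimates with none called. Ifit3 was at 46.8 ± 6.41 CPM in responders and 31.1 ± 14.4 CPM in non-responders (edgeR log2 fold change 0.59, standard error 0.26, adjusted p = 0.150). Ifit3b, a close copy of it, was at 14.0 ± 2.13 CPM in responders and 9.58 ± 4.11 CPM in non-responders (edgeR log2 fold change 0.55, standard error 0.24, adjusted p = 0.156). Ifit1, which recognizes the 5′ end of RNA that lacks host cap methylation, was at 34.4 ± 4.56 CPM in responders and 25.4 ± 11.2 CPM in non-responders (edgeR log2 fold change 0.44, standard error 0.24, adjusted p = 0.257). Ifit2 was at 79.9 ± 7.74 CPM in responders and 61.8 ± 18.3 CPM in non-responders (edgeR log2 fold change 0.37, standard error 0.16, adjusted p = 0.154). In each of the 4 genes, non-responders 1 and 4 were below every responder and non-responder 2 was among the responders.

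The Mx proteins are dynamin-like GTPases that block virus replication, and many laboratory mouse strains are known to carry defective Mx alleles, so these values are of transcripts and not of working protein. Mx1 was at 34.7 ± 5.598 CPM in responders and 24.3 ± 7.17 CPM in non-responders (edgeR log2 fold change 0.51, standard error 0.18, adjusted p = 0.0890). Mx2, which the annotation lists as a polymorphic pseudogene, was at 14.5 ± 1.70 CPM in responders and 11.8 ± 4.77 CPM in non-responders (edgeR log2 fold change 0.29, standard error 0.21, adjusted p = 0.396), with its highest level of all in non-responder 2, at 17.8 CPM.

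Viperin (Rsad2) is an enzyme that makes a chain-terminating nucleotide, and its neighbor Cmpk2 encodes a mitochondrial nucleotide kinase. Cmpk2 was at 26.3, 27.0, 32.7, 23.5, 26.1 and 21.9 CPM in responders 1 to 6 and 9.29, 24.3, 19.5 and 14.7 CPM in non-responders 1 to 4. Responders 3 and 2 were highest, and non-responder 2 was the only non-responder within the responders' range. By edgeR, Cmpk2 had a log2 fold change of 0.63 (standard error 0.21, adjusted p = 0.0834). Rsad2 was at 26.5 ± 2.92 CPM in responders and 21.0 ± 9.58 CPM in non-responders (edgeR log2 fold change 0.34, standard error 0.24, adjusted p = 0.367), and its highest level was in non-responder 3, at 31.9 CPM.

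Among the membrane restriction factors, Bst2 rose and the Ifitm genes did not pass the test. Bst2 (ENSMUSG00000046718, chromosome 8, 71534255 to 71537456, minus strand) encodes tetherin, which holds budding virus particles on the cell surface. Its levels were 185, 214, 207, 209.7, 211 and 188 CPM in responders 1 to 6 and 92.4, 174, 144 and 143 CPM in non-responders 1 to 4. The responders lay close together and all 4 non-responders lay below them, with non-responder 1 the lowest of the 10. Bst2 was at 202 ± 12.7 CPM in responders and 138 ± 33.6 CPM in non-responders, an edgeR log2 fold change of 0.55 (standard error 0.14, adjusted p = 0.0378). The Ifitm proteins block the fusion of viral and endosomal membranes. Ifitm3 was at 582 ± 50.7 CPM in responders and 509 ± 106 CPM in non-responders (edgeR log2 fold change 0.19, standard error 0.12, adjusted p = 0.329). Ifitm2 was at 381 ± 23.1 CPM in responders and 363 ± 10.6 CPM in non-responders (edgeR log2 fold change 0.07, standard error 0.051, adjusted p = 0.375), and here the 4 non-responders were closer together than the responders. Ifitm1 was the member with the lowest estimate. Its levels were 38.8, 46.1, 30.0, 38.6, 37.1 and 40.3 CPM in responders 1 to 6 and 29.2, 57.3, 54.8 and 39.9 CPM in non-responders 1 to 4. The highest levels of Ifitm1 were in non-responders 2 and 3, above every responder, while non-responder 1 was lower than all 9 others, so the groups overlapped. By edgeR, Ifitm1 had a log2 fold change of -0.23 (standard error 0.17, adjusted p = 0.392).

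The helicases and nucleases act on RNA, and 5 of 6 had a higher estimate with none called. Znfx1, a helicase that senses viral RNA at mitochondria, was at 178, 156, 184, 154, 179.5 and 152 CPM in responders 1 to 6 and 108, 149, 152 and 121 CPM in non-responders 1 to 4. Non-responder 3 was just above the lowest responder, and the other non-responders were below all 6. By edgeR, Znfx1 had a log2 fold change of 0.33 (standard error 0.10, adjusted p = 0.0630). Ddx60, a helicase that aids the RIG-I-like sensors, was at 35.4, 36.2, 43.5, 27.8, 36.3 and 34.5 CPM in responders 1 to 6 and 9.972, 31.2, 29.6 and 17.7 CPM in non-responders 1 to 4. Only responder 4 lay within the range of the non-responders. By edgeR, Ddx60 had a log2 fold change of 0.69 (standard error 0.26, adjusted p = 0.109), and its standard error was the second largest of the 40 genes. Mov10, a helicase that restrains retroelements, was at 79.3 ± 7.68 CPM in responders and 65.8 ± 9.37 CPM in non-responders (edgeR log2 fold change 0.27, standard error 0.098, adjusted p = 0.0988). Helz2, a nuclear helicase and transcriptional coactivator, was at 166 ± 14.3 CPM in responders and 150.1 ± 36.3 CPM in non-responders (edgeR log2 fold change 0.14, standard error 0.13, adjusted p = 0.514). Pnpt1, a mitochondrial ribonuclease, was the flattest of the 40 genes among responders after Ogfr, at 60.2 ± 2.13 CPM in responders and 59.2 ± 3.74 CPM in non-responders (edgeR log2 fold change 0.02, standard error 0.047, adjusted p = 0.783). Isg20, an exonuclease that degrades viral RNA, was at 24.6, 23.0, 22.1, 21.8, 18.8 and 22.8 CPM in responders 1 to 6 and 19.8, 24.8, 26.5 and 19.4 CPM in non-responders 1 to 4. Its lowest level was in responder 5 and its highest in non-responder 3, and the ranges overlapped. By edgeR, Isg20 had a log2 fold change of -0.03 (standard error 0.10, adjusted p = 0.883).

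All 5 of the small IFN-induced proteins had higher estimates, with none called. Ifi44 (ENSMUSG00000028037, chromosome 3, 151730922 to 151749960, minus strand), a cytoplasmic protein strongly induced by IFN, was at 154, 130, 166, 122, 155 and 115 CPM in responders 1 to 6 and 35.7, 111, 96.9 and 77.1 CPM in non-responders 1 to 4. Every responder was above every non-responder, although responder 6 and non-responder 2 were close. By edgeR, Ifi44 had a log2 fold change of 0.81 (standard error 0.25, adjusted p = 0.0640), the second largest of the 40 genes. Ifi27l2a, a small hydrophobic protein, was at 25.3, 22.2, 21.9, 16.5, 22.6 and 19.0 CPM in responders 1 to 6 and 12.96, 17.1, 18.3 and 11.9 CPM in non-responders 1 to 4. This was 1 of the 2 genes in which non-responder 1 was not the lowest tumor, since non-responder 4 lay below it. By edgeR, Ifi27l2a had a log2 fold change of 0.50 (standard error 0.14, adjusted p = 0.0548). Its neighbor Ifi27 was at 80.6 ± 6.15 CPM in responders and 70.2 ± 14.0 CPM in non-responders (edgeR log2 fold change 0.20, standard error 0.11, adjusted p = 0.262). Ifi35 and Nmi encode partner proteins that bind each other. Nmi was at 37.1 ± 3.05 CPM in responders and 26.9 ± 7.57 CPM in non-responders (edgeR log2 fold change 0.46, standard error 0.16, adjusted p = 0.0863). Ifi35 was at 56.2 ± 3.43 CPM in responders and 45.1 ± 10.9 CPM in non-responders (edgeR log2 fold change 0.32, standard error 0.13, adjusted p = 0.143).

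The nuclear proteins had the highest median log2 fold change of the roles (0.61, 3 genes), and 1 of 3 rose. Phf11b (ENSMUSG00000091649, chromosome 14, 59320964 to 59341351, minus strand) and Phf11d encode zinc finger proteins of the PHD type. Phf11b was at 24.5, 20.6, 22.2, 16.7, 25.0 and 17.7 CPM in responders 1 to 6 and 5.57, 15.3, 13.4 and 10.2 CPM in non-responders 1 to 4. Responder 4, the lowest of its group, was above non-responder 2, the highest of the other, by less than 2 CPM. Phf11b was at 21.1 ± 3.45 CPM in responders and 11.1 ± 4.25 CPM in non-responders, an edgeR log2 fold change of 0.92 (standard error 0.23, adjusted p = 0.0401), the largest of the 40 genes. Phf11d was at 53.0 ± 5.5 CPM in responders and 34.8 ± 14.3 CPM in non-responders (edgeR log2 fold change 0.61, standard error 0.23, adjusted p = 0.104). Of the short sequences (31 bases) in the exons of Phf11b, 62.9% also occur in the exons of other genes, chiefly Phf11a and Phf11d, so the division of reads among them is uncertain. With the counts of Phf11b and Phf11d added together the log2 fold change was 0.69 (standard error 0.23, edgeR adjusted p = 0.0752), which no longer passed. Phf11a, in which 44.5% of the short sequences of Phf11b occur, was not part of this sum, so the uncertainty remains. Sp100, a scaffold of PML nuclear bodies, was at 136, 121, 141, 111, 147 and 119 CPM in responders 1 to 6 and 52.3, 112, 96.1 and 90.8 CPM in non-responders 1 to 4. Responder 4 and non-responder 2 overlapped there. By edgeR, Sp100 had a log2 fold change of 0.55 (standard error 0.17, adjusted p = 0.0641).

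The signaling, death and trafficking genes all had higher estimates (9 of 9), and none was called. All 9 had an unadjusted p under 0.05 by edgeR with a higher estimate, against 15.6% of all genes tested. Epsti1, an IFN-induced gene of stromal and epithelial cells, was at 21.0, 19.4, 23.0, 17.8, 20.7 and 17.9 CPM in responders 1 to 6 and 12.2, 16.1, 17.8 and 16.4 CPM in non-responders 1 to 4. Non-responder 3 was above the lowest responder, and the remaining non-responders were below all 6. By edgeR, Epsti1 had a log2 fold change of 0.35 (standard error 0.11, adjusted p = 0.0647). Trafd1, a feedback inhibitor of innate signaling, was at 191 ± 16.5 CPM in responders and 132 ± 39.8 CPM in non-responders (edgeR log2 fold change 0.54, standard error 0.17, adjusted p = 0.0658). Xaf1, which opposes the apoptosis inhibitor XIAP, was at 64.8 ± 6.51 CPM in responders and 42.4 ± 17.5 CPM in non-responders (edgeR log2 fold change 0.61, standard error 0.23, adjusted p = 0.110). Samd9l, a restriction factor of poxviruses, was at 85.8 ± 9.56 CPM in responders and 58.7 ± 20.3 CPM in non-responders (edgeR log2 fold change 0.55, standard error 0.19, adjusted p = 0.0864). These 3 shared a low level in non-responder 1 and a level within the responders' range in non-responder 2.

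Rtp4, a receptor chaperone, was at 48.5 ± 6.48 CPM in responders and 31.7 ± 12.7 CPM in non-responders (edgeR log2 fold change 0.61, standard error 0.23, adjusted p = 0.114). Lgals3bp, a secreted glycoprotein that binds galectins, was at 392 ± 35.4 CPM in responders and 301 ± 75.5 CPM in non-responders (edgeR log2 fold change 0.38, standard error 0.15, adjusted p = 0.114). Tor3a, an ATPase of the endoplasmic reticulum, was at 154 ± 12.9 CPM in responders and 120.2 ± 26.1 CPM in non-responders (edgeR log2 fold change 0.35, standard error 0.12, adjusted p = 0.0905). The estimates of these 3 genes correspond to ratios of 1.28 to 1.53 between the groups, and none passed. Shisa5, a membrane protein of the endoplasmic reticulum linked to apoptosis, was at 212 ± 19.3 CPM in responders and 183 ± 15.4 CPM in non-responders (edgeR log2 fold change 0.22, standard error 0.076, adjusted p = 0.0917). Ogfr, the opioid growth factor receptor, was at 142 ± 3.93 CPM in responders and 123 ± 17.9 CPM in non-responders (edgeR log2 fold change 0.21, standard error 0.08, adjusted p = 0.112). Ogfr was the steadiest of the 40 genes among responders, with an SD of 0.040 on the log2 scale.

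**Figure D2:**
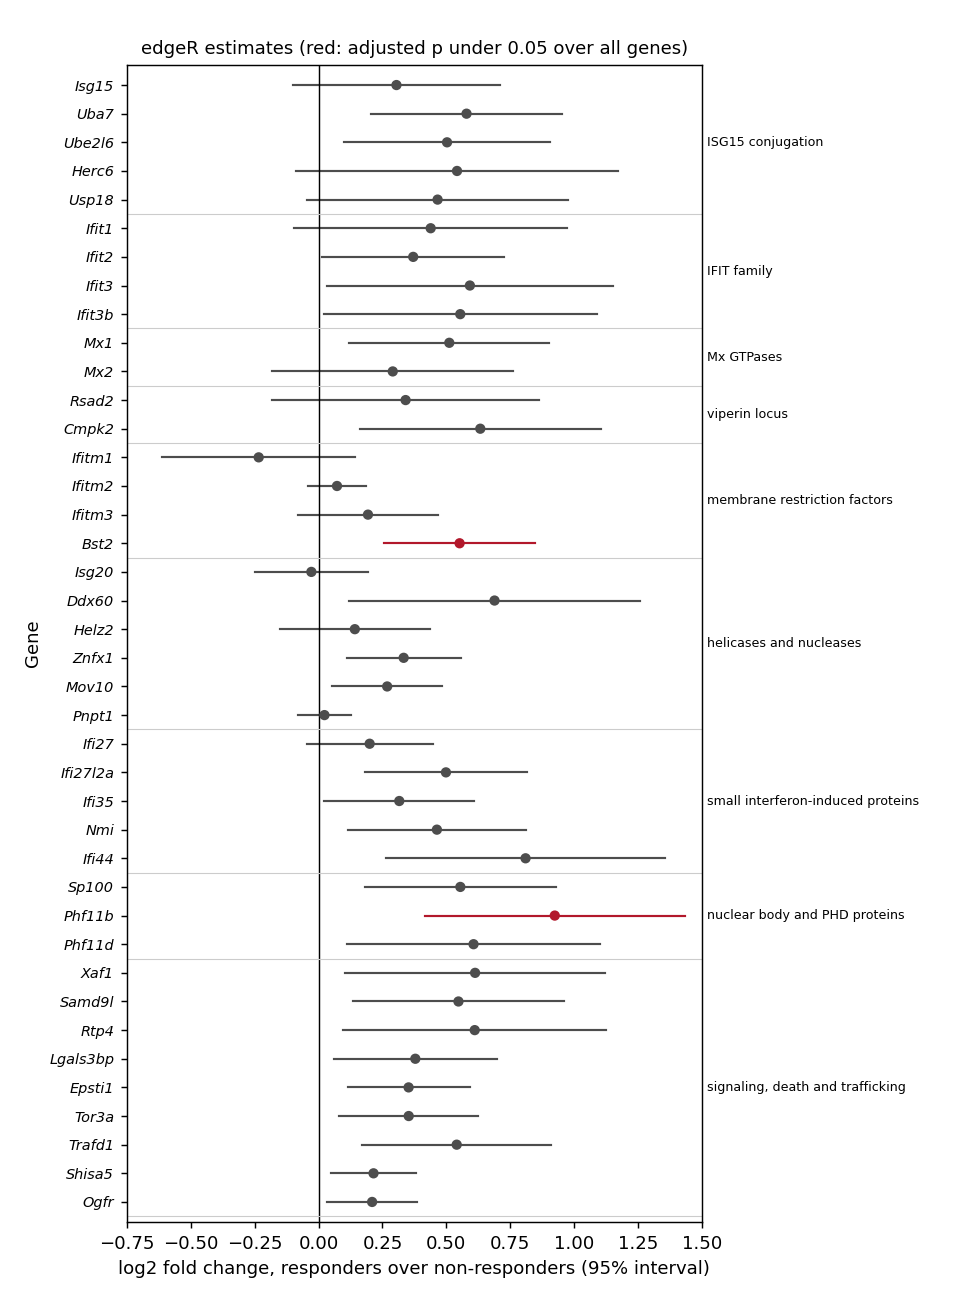
edgeR log2 fold change (horizontal axis, responders over non-responders) with its 95% interval for each of the 40 genes, grouped by role. Points of 38 genes lie above 0, the intervals of 27 exclude 0, and the 2 in red (Bst2 and Phf11b) passed an adjusted p under 0.05.

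**Figure D3:**
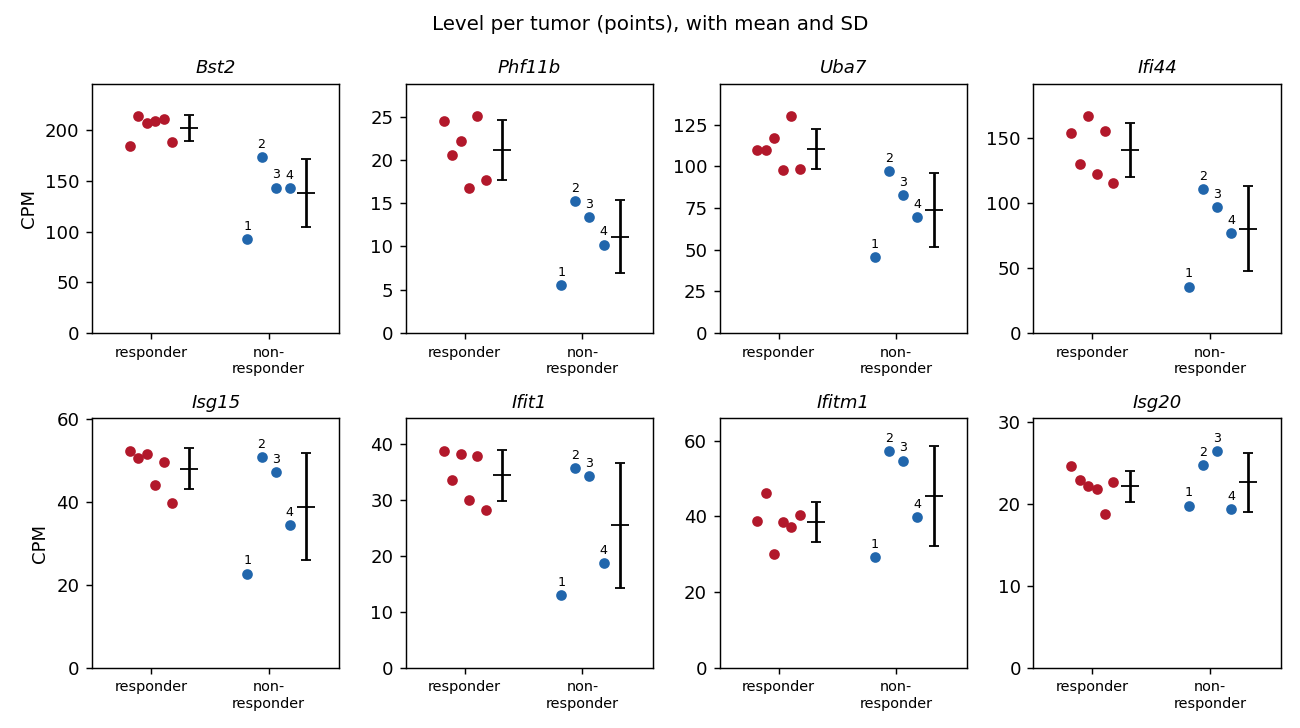
CPM per tumor for the 4 genes whose groups did not overlap (Bst2, Phf11b, Uba7, Ifi44), for Isg15 and Ifit1, and for the 2 genes with a lower estimate (Ifitm1, Isg20), with the mean and SD beside the points and non-responders labelled by number. Non-responder 1 is lowest in 7 of the 8 panels, and in Ifitm1 non-responders 2 and 3 lie above all responders.

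Levels differed between genes far more than between groups. Per kilobase of exon, the highest mean over the 10 tumors was Ifitm3 with 815.6 CPM per kb, then Ifitm2 with 570.7, Bst2 with 195.7 and Lgals3bp with 124.9 CPM per kb. The lowest were Ddx60 with 3.48 and Mx2 with 3.71 CPM per kb. The genes with the highest levels per kb were of mixed behavior, since Ifitm3 and Ifitm2 did not pass the test and Bst2 did.

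Non-responders were more variable than responders. Over the 40 genes, the median SD of log2 CPM was 0.147 in responders and 0.467 in non-responders, where all genes tested had medians of 0.128 and 0.145. The SD was larger in non-responders for 38 of 40 genes, against 58.3% of all genes, and the exceptions were Ifitm2 and Shisa5. For 38 of the 40 genes the lowest value of the 10 was that of non-responder 1, against 21.7% of all genes. Its mean log2 CPM over the 40 genes was 5.003, against 5.55 in non-responder 4, 5.89 in non-responder 3 and 6.03 in non-responder 2. The 6 responders lay between 5.94 and 6.19. Non-responder 2 therefore lay inside the range of the responders, and non-responder 3 just below it.

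By gene, non-responder 2 was above the lowest responder in 34 of the 40 genes, above the responder median in 12 and above every responder in 5. For non-responder 3 these counts were 20, 5 and 3, for non-responder 4 they were 2, 1 and 0, and for non-responder 1 they were 1, 0 and 0. Among responders, the highest of the 10 tumors was responder 1 in 14 genes, responder 3 in 11 and responder 5 in 8, and the lowest responder was responder 6 in 23 genes and responder 4 in 12.

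The count of called genes depended on single tumors, but the direction of the median and of most of the 40 genes did not. Without non-responder 2, 18 of 40 genes rose by edgeR, against 7.07% of all genes tested called higher in that fit, and 20 did not overlap, against 10.2%. Those 18 included Bst2, Phf11b, Samd9l, Uba7, Trafd1, Mx1, Cmpk2 and Ifit3. Without responder 4, 3 genes rose by edgeR (Bst2, Phf11b and Ifi27l2a), against 6.70% of all genes called higher in that fit. Without any other single tumor, none of the 40 passed, against 0.00% to 2.78% of all genes called higher in these 8 fits. In the same 8 fits, 19 to 30 of the 40 had an unadjusted p under 0.05 by edgeR in either direction, against 22.4% to 28.0% of all genes. DESeq2 with all 10 tumors called 19 of 40, against 16.0% of all genes called in either direction. A higher estimate was found for 37 to 39 of the 40 genes in each of these 10 fits. The median log2 fold change ranged from 0.26 without non-responder 1 to 0.58 without non-responder 2. Without non-responder 1 the log2 fold change of Bst2 was 0.41 (standard error 0.076, edgeR adjusted p = 0.0536) and that of Phf11b was 0.71 (standard error 0.16, edgeR adjusted p = 0.0634). Leaving out a tumor can hardly make groups overlap that were already separate, so the lack of overlap is no further check in these fits.

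**Figure D4:**
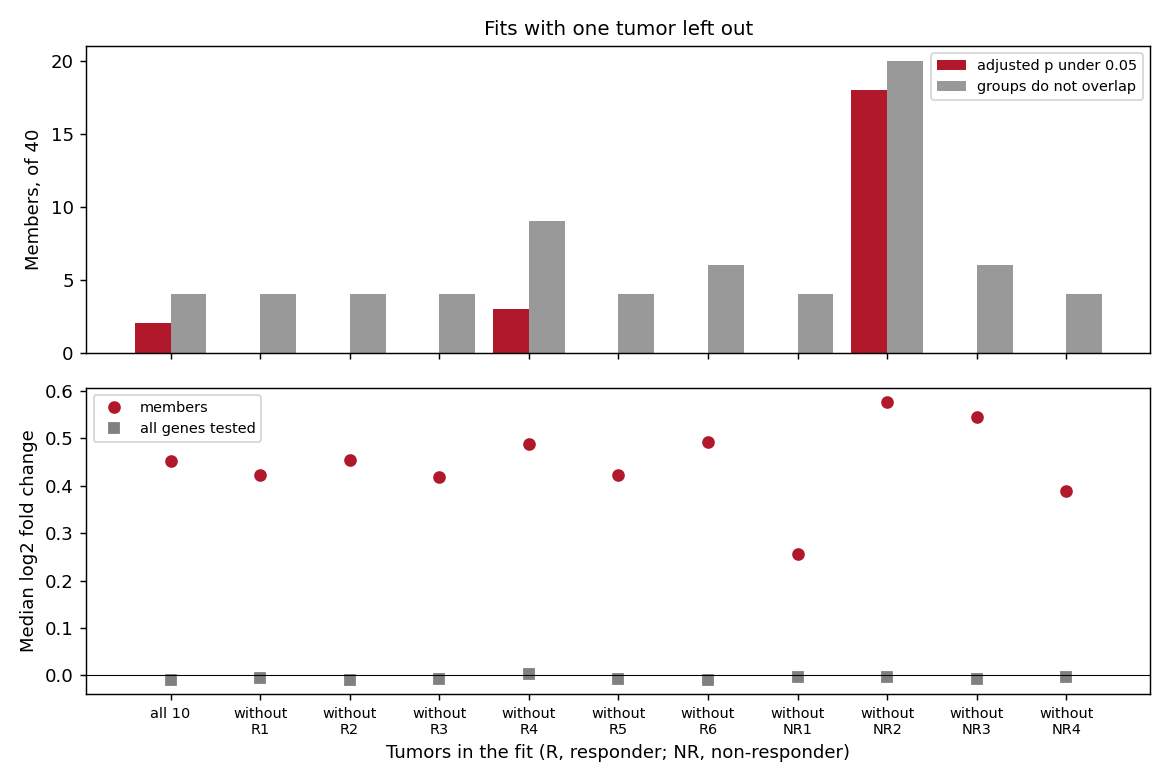
Fits with all 10 tumors and with each tumor left out (horizontal axis). The upper panel counts the genes of 40 that passed an adjusted p under 0.05 (red) or whose groups did not overlap (gray), which reach 18 and 20 without non-responder 2, and the lower panel gives the median log2 fold change of the 40 genes (red) and of all genes tested (gray), 0.26 to 0.58 for the 40 genes in the fits with a tumor left out.

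Several of the genes are neighbors, and whether neighbors vary together was not tested. Ifit2, Ifit3, Ifit3b and Ifit1 lie in this order on chromosome 19, 7.11, 19.2 and 27.5 kb apart (GRCm38). Rsad2 and Cmpk2 lie 12.75 kb apart on opposite strands of chromosome 12, and Ifi27 and Ifi27l2a lie 1.93 kb apart on the same chromosome, also on opposite strands. Phf11b and Phf11d lie 6.06 kb apart on chromosome 14, and Mx1 and Mx2 lie 72.4 kb apart on chromosome 16. Ifitm2, Ifitm1 and Ifitm3 lie in this order on chromosome 7, 11.2 and 39.8 kb apart. Their edgeR log2 fold changes differed in direction, at 0.07, -0.23 and 0.19. Of the 31-base sequences of Ifit3, 61.8% occur in Ifit3b. For Ifitm2, 55.5% of these sequences occur in other genes, most of all in Gm45717 and Gm8865, which are not among the 40. For Bst2 the share was 0, so its counts do not rest on such a division.

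Upstream of the effector genes, the ligands were near the limit of detection. Of 11 IFN ligand genes only Ifng could be tested. Ifng was at 4.89, 3.18, 2.51, 2.05, 4.64 and 1.67 CPM in responders 1 to 6 and 0.202, 1.87, 2.04 and 0.935 CPM in non-responders 1 to 4. Non-responders 1 and 4 were below every responder and non-responders 2 and 3 were not. By edgeR, Ifng had a log2 fold change of 1.33 (standard error 0.49, adjusted p = 0.102). Ifnb1 had 1 to 6 counts in a tumor, and Ifna1, Ifna5, Ifna11, Ifnl2 and Ifnl3 had 0 in all 10. In a single library, an observed 0 leaves room for an expected count of up to about 3. The IFN-alpha genes are close copies of each other, so counts among them are uncertain.

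Of the 10 genes of IFN receptors, their kinases and ISGF3, 9 had a higher estimate and none was called (median log2 fold change 0.19). The lowest p values were for the receptor chain Ifnar2 (edgeR log2 fold change 0.28, standard error 0.08, adjusted p = 0.0543), the kinase Tyk2 (edgeR log2 fold change 0.21, standard error 0.064, adjusted p = 0.0632) and the DNA-binding subunit Irf9 (edgeR log2 fold change 0.39, standard error 0.14, adjusted p = 0.102). All 8 IFN regulatory factors and feedback inhibitors had a higher estimate, with a median of 0.50, and 1 rose. This was Irf5, a factor of myeloid cells, at 62.1 ± 6.54 CPM in responders and 46.1 ± 4.17 CPM in non-responders (edgeR log2 fold change 0.43, standard error 0.084, adjusted p = 0.0259). Irf8 (edgeR log2 fold change 0.66, standard error 0.19, adjusted p = 0.0512) and Irf7 (edgeR log2 fold change 0.57, standard error 0.18, adjusted p = 0.0693), the factor that amplifies type I IFN, did not pass.

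Of 17 genes of the oligoadenylate synthetases and RNA sensors (median log2 fold change 0.51), 16 had a higher estimate and none was called higher. Mavs, the adaptor of the cytosolic RNA sensors, fell (edgeR log2 fold change -0.22, standard error 0.054, adjusted p = 0.0391). Oas2 (edgeR log2 fold change 0.72, standard error 0.22, adjusted p = 0.0661) and Tlr3, the endosomal sensor of double-stranded RNA (edgeR log2 fold change 0.59, standard error 0.19, adjusted p = 0.0726), did not pass. The guanylate-binding proteins and immunity-related GTPases, which respond strongly to IFN-gamma, had a higher estimate in 16 of 16 genes, with a median of 0.95. The groups did not overlap for 7 of the 16, against 5.84% of all genes tested. Gbp11 rose, at 10.01 ± 2.42 CPM in responders and 3.31 ± 2.19 CPM in non-responders (edgeR log2 fold change 1.59, standard error 0.42, adjusted p = 0.0438), with close copies in its cluster that make its counts uncertain. Gbp8 (edgeR log2 fold change 1.03, standard error 0.29, adjusted p = 0.0522) and Gbp10 (edgeR log2 fold change 1.52, standard error 0.49, adjusted p = 0.0727) did not pass. The summed level of the 16 genes was 506.7 CPM in non-responder 1, 1572 to 3029 CPM in the other non-responders and 2972 to 4538 CPM in responders. The effector genes and these lists were read in the same 10 tumors, so their differences are not independent of each other.

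**Figure D5:**
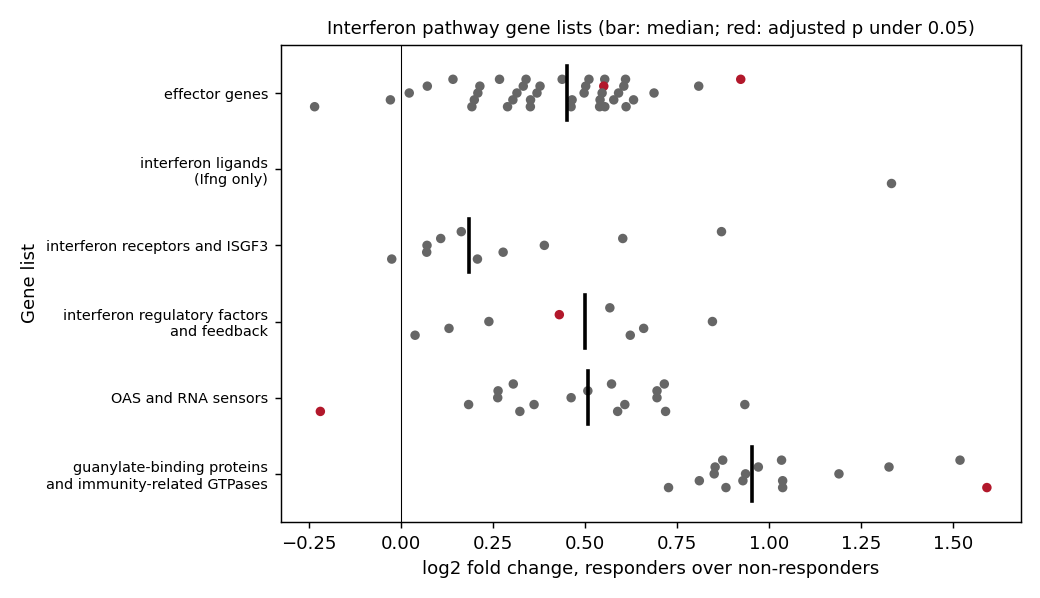
edgeR log2 fold change (horizontal axis) of each tested gene of the 40 effector genes and of 5 other lists of the IFN pathway, with the median of each list as a bar (no bar for the ligands, where only Ifng was tested) and genes at an adjusted p under 0.05 in red. The medians are 0.45 for the effector genes, 0.19 for receptors and ISGF3, 0.50 for regulatory factors, 0.51 for OAS and RNA sensors and 0.95 for the guanylate-binding proteins and immunity-related GTPases.

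Most leukocyte, macrophage and lymphocyte markers had a higher estimate in responders. Of all genes tested, 4.71% were called higher. The summed level of 5 leukocyte markers was 1010 to 1536 CPM in responders and 641 to 934.5 CPM in non-responders, without overlap, and 3 of the 5 rose (Ptprc, Laptm5 and Coro1a). The 7 macrophage markers summed to 2860 to 4271 CPM against 1991 to 2692 CPM, and 5 rose. Csf1r had a higher estimate that did not pass (edgeR log2 fold change 0.24, adjusted p = 0.13). Mrc1 went the other way, at 411 ± 49.0 CPM in responders and 449 ± 80.2 CPM in non-responders (edgeR log2 fold change -0.13, adjusted p = 0.49). The 10 T and NK lymphocyte markers summed to 206 to 445 CPM against 86.8 to 217.6 CPM, and 2 rose (Cd8b1 and Nkg7). Non-responder 1 had the lowest sum of each of these 3 lists, as it had the lowest level of 38 effector genes. Non-responder 2, whose mean level of the effector genes lay within the range of the responders, had leukocyte and macrophage sums below every responder.

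For 5 plasmacytoid dendritic cell markers other than Bst2, which also marks these cells in mice, the sums were 456 to 516 CPM in responders. In non-responders they were 396 to 485 CPM, and none of the 5 rose. Tcf4, Irf8 and Runx2 made up most of these sums. Over the 10 tumors, Siglech was at 7.82 to 15.4 CPM and Ccr9 at 5.55 to 9.54 CPM. Tcf4 was lower in every responder than in every non-responder (edgeR log2 fold change -0.165, adjusted p = 0.104). Estimates of the other 4 were higher, up to 0.66 for Irf8. The sums therefore mix opposing members, and the content of these cells was not tested. Inflammatory monocyte markers summed to 164 to 216 CPM against 127 to 170.1 CPM, with 1 called (Ly6c2). The 4 skeletal muscle markers summed to 316 to 1038 CPM against 287 to 373 CPM, with 2 called, and the 4 adipocyte markers to 14.7 to 46.6 CPM against 8.37 to 17.5 CPM, with none called. Sums of 6 fibroblast markers overlapped (5494 to 6578 CPM against 4662 to 7631 CPM), as did those of 5 neutrophil markers (75.1 to 154 CPM against 59.3 to 126 CPM) and 4 endothelial markers (83.8 to 139 CPM against 66.3 to 101 CPM). The 8 epithelial markers summed to 17.5 to 42.1 CPM in responders and 40.3 to 84.8 CPM in non-responders, and none was called. Krt20 alone, at 12.7 to 75.3 CPM over the 10 tumors, made up most of these sums. The part of these cell contents in the differences of the effector genes was not tested.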

How the data were processed

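PolyA RNA of 10 resected CT26 tumor pieces was sequenced as paired-end reads (Illumina). The authors reviewed read quality with FastQC, quantified transcripts with kallisto and summed them to genes with tximport (GRCm38, also named in the submitters' processing notes). The deposited values are estimated counts per gene (expected counts, fractional for 45.05% of values), without scaling for depth. Not stated were the release of the annotation, how tximport scaled its counts and whether strand was used, and reads of near-identical or overlapping genes can be split in error. Groups were taken from the response given in the labels. No sequencing batch was given, so none was modelled.

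Counts were rounded to whole numbers. The filter filterByExpr of edgeR 4.0.16 (R 4.3.3; minimum count 10, minimum total 15) left 16041 genes, and libraries were scaled by TMM. The groups were compared with the two-sided quasi-likelihood test, with Benjamini-Hochberg adjustment over all genes tested and a threshold of 0.05. CPM are counts relative to the TMM-scaled total, with a prior count of 2 before the log2. The standard error is the log2 fold change over the square root of the F statistic. Rows with no gene name (9633) kept their identifier and stayed in totals and tests. Totals of 23374649 to 38042544 counts and the number of tumors both limit the precision for the genes here. Each tumor came from a separate mouse. The filter, scaling, test (DESeq2 1.42.0, limma-voom 3.58.1), threshold, paralog sums and each single tumor were varied. The fitting script was tested on simulated counts.

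The 40 genes and the pathway and marker lists were chosen with earlier results of these data known, so no test of a list was made and lists are described by counts and medians. All 40 genes are named. Values of every tumor are given for those that passed, did not overlap, had 1 of the 8 smallest p or the 4 largest fold changes, or had a lower estimate, and up to 3 genes with the smallest p are named from each pathway list. Motifs were searched in RefSeq promoter windows, and gene positions, exon lengths and shared 31-base sequences come from GENCODE (GRCm38). Percentages beside a count of members are the share of all genes tested that met the same rule.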

Additional observations from a re-analysis of the deposited data

Results flagged for a closer look

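Of 82 groups of values (each of the 40 genes, and their mean, in the 6 responders and in the 4 non-responders), 0 held a tumor whose gap to the nearest of its group was large enough for its range to stand apart by Dixon's criterion, where chance alone gives about 4.1. Non-responder 1, the lowest tumor for 38 genes, was not set apart by this criterion, since the remaining non-responders were themselves spread out.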

How the results depend on the processing

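The number of the 40 genes called was 2, against 4.71% of all genes called higher. It was 19 with DESeq2, against 9.56% of all genes called higher, and 17 at an adjusted p under 0.1, against 10.5%. It was 1 with the counts of Phf11b and Phf11d and of Ifit3 and Ifit3b added (Bst2 alone), against 4.71%. With a tumor left out it ranged from 0 to 18, with 18 without non-responder 2, against 7.07%, and 3 without responder 4, against 6.70%. It was 0 without any other single tumor, against 0.00% to 2.78%. It stayed at 2 with RLE size factors, library totals, limma-voom, a robust fit and the other filters on low counts, against 2.45% to 5.87%. The number of genes whose groups did not overlap was 4, against 5.84% of all genes. It was 7 with no filter on low counts, against 4.01%, 5 with library totals, where Uba7 overlapped and Znfx1 and Epsti1 did not, against 5.47%, and 3 with the paralog pairs added, against 5.83%. With a tumor left out it ranged from 4 to 20, with 20 without non-responder 2, against 10.2%, and 9 without responder 4, against 9.26%. Leaving out a tumor can hardly lower this count. The causes were not tested. The number of genes with a higher estimate (38) and the median log2 fold change (0.45) kept their direction in every alternative, the median ranging from 0.26 to 0.58 with a tumor left out.

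Over single genes, 704 of 758 alternative values kept direction and side of the threshold, 34 passed only in the alternative and 16 only in the main test. The sign turned in 4, none of them called. With a tumor left out, the log2 fold change of Isg20 ranged from -0.096 to 0.055 (above 0 without responder 5, at 0.016, non-responder 2, at 0.022, or non-responder 3) and that of Pnpt1 from -0.0059 (without non-responder 1) to 0.061. Without non-responder 4 no gene of the whole table passed with edgeR, although 4106 had an unadjusted p under 0.05.

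No paired analysis was possible because the numbers of the tumors follow the order of registration and pair none across groups. With 6 and 4 tumors, small differences of the most variable genes could not be told from the spread between tumors. Pseudoaligned counts of near-identical genes, the unstated strand setting and the mixture of tumor and host cells limit what single genes can show.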
